A study of Mus musculus with 4 samples.

Results

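Myosin heavy chains are the motor proteins of the thick filament, and the isoform a muscle fibre makes sets its speed of contraction and gives the fibre type its name. The 8 genes described here, Myh1, Myh2, Myh3, Myh4, Myh6, Myh7, Myh7b and Myh8, were taken from the deposited table by their symbols, and all 8 of the 24054 symbols listed were found once each. They were measured by RNA-seq in whole soleus, a slow hindlimb muscle, of mdx mice, which lack dystrophin; all were females of the strain C57BL/10ScSn-DMD mdx/J. In both groups infusions began at 8 weeks of age and were given monthly through the femoral vein until the endpoint at month 12. The mCDC group had received mouse cardiosphere-derived cells, which are cells grown from heart tissue, at passage 5 and from 1 heart of a C57BL/10ScSn/J mouse, and the vehicle group had received the culture medium IMDM alone. Each group has 2 libraries, mCDC 1 and mCDC 2 against vehicle 1 and vehicle 2, and no healthy muscle was sequenced, so dystrophic muscle was compared with dystrophic muscle. The labels number the samples within a group and do not say that each came from a separate mouse, so the p-values measure the spread between these samples.

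In adult rodents slow (type I) fibres use Myh7, and fast fibres use Myh2 (type IIa), Myh1 (type IIx) or Myh4 (type IIb), in rising order of shortening speed. Mouse soleus is known for its many type I and IIa fibres, with type IIx as a minority and type IIb close to absent. Myh3 (embryonic) and Myh8 (perinatal) mark developing and regenerating fibres, which are frequent in dystrophic muscle. Myh6 is the fast cardiac isoform and Myh7b an ancient slow isoform whose transcript carries a microRNA in an intron and is little translated in most muscle.

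No difference between mCDC and vehicle muscles passed the test in these 8 genes, while Myh1 and Myh4 differed greatly between muscles of the same group. A call needed more than a 1.5-fold difference and an unadjusted p below 0.05, the thresholds of the study's methods, and none of the 8 genes met both, where 1.26% of the 13652 genes tested were called higher and 2.74% lower. Myh7 supplied 73.2% to 78.1% of the 8-gene total, and Myh1, Myh2 and Myh4 together 20.2% to 24.7%. Within that fast total the mix ran from 51.9% Myh2 in mCDC 1 to 93.7% Myh2 in mCDC 2. Myh4 spanned a 44.2-fold range, and both its highest and its lowest value came from mCDC muscles.

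The coordinates below are of mouse build GRCm38. On chromosome 11, Myh3 (67078300-67102291), Myh2 (67171027-67197517), Myh1 (67200052-67224575), Myh4 (67238029-67260446) and Myh8 (67277124-67308634) lie in a row on the plus strand, followed by Myh13 (67321658-67371586), a heavy chain of extraocular muscle. The cluster spans 293.3 kb. Myh6 (54941921-54966927) and Myh7 (54970684-54994626) are neighbours on the minus strand of chromosome 14, and Myh7b (155611212-155634307) lies on the plus strand of chromosome 2. Each of the 8 genes has 39 to 42 exons and a transcript of 6016 to 6230 bases, so levels of different members in CPM, expected counts scaled to a common library size, are close to a per-length scale already.

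Because these genes arose by duplication, reads can fit several of them, and the deposited expected counts divide such reads by an estimate. Coding sequences were 91.0% identical between Myh1 and Myh2, 90.1% between Myh1 and Myh4 and 91.7% between Myh6 and Myh7, against 77.4% between Myh4 and Myh7. Myh7b stood apart from all the others, at 68.8% to 72.0%. The 75-base stretches below, a read's length, show both extremes for the adult fast genes, because the counts rest on telling such stretches apart. Bases 1563-1637 of the Myh4 coding sequence are the same in Myh1 and Myh2, and the aligned bases 1554-1628 of Myh7 have 8 differences, given in capitals.
Myh4, Myh1 and Myh2, shared: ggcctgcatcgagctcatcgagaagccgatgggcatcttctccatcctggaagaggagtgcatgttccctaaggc
Myh7, same place: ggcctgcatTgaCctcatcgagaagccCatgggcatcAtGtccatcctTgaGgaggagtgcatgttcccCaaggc

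At bases 3841-3915 of the Myh4 coding sequence the genes are far apart. Capitals mark the bases that differ from Myh4, of which there are 23 in Myh1, 22 in Myh2 and 23 in Myh7.
Myh4, distinct stretch: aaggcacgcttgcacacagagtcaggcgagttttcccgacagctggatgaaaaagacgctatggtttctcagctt
Myh1, same place: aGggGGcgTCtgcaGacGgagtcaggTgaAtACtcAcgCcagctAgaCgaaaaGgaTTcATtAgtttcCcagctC
Myh2, same place: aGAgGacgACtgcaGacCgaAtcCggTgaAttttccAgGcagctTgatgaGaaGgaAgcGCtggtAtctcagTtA
Myh7, same place: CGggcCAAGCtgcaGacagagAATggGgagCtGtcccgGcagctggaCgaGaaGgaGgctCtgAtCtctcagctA

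Of all 75-base words in each transcript, 16.58% of those in Myh1 and 16.29% of those in Myh2 also occurred in another gene's transcript. The share was 9.68% for Myh4 and 12.92% for Myh8. Myh6 and Myh7 shared 939 words with each other and none with any other gene, which made 15.55% of Myh6 and 15.25% of Myh7. Only 1.86% of Myh3 words and no Myh7b word occurred elsewhere. The largest overlap in the fast genes was between Myh1 and Myh2, at 755 words, while Myh1 and Myh4 shared 291. Counts of low members next to a much higher relative, Myh6 beside Myh7 above all, are therefore uncertain, because how the estimate divided their common reads was not tested. The antisense genes 9430073C21Rik and Myhas overlap Myh2 and Myh1 on the other strand, and since the sources do not say whether counting used strand, their reads may not have been told apart from those of Myh2 and Myh1.

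**Figure D1:**
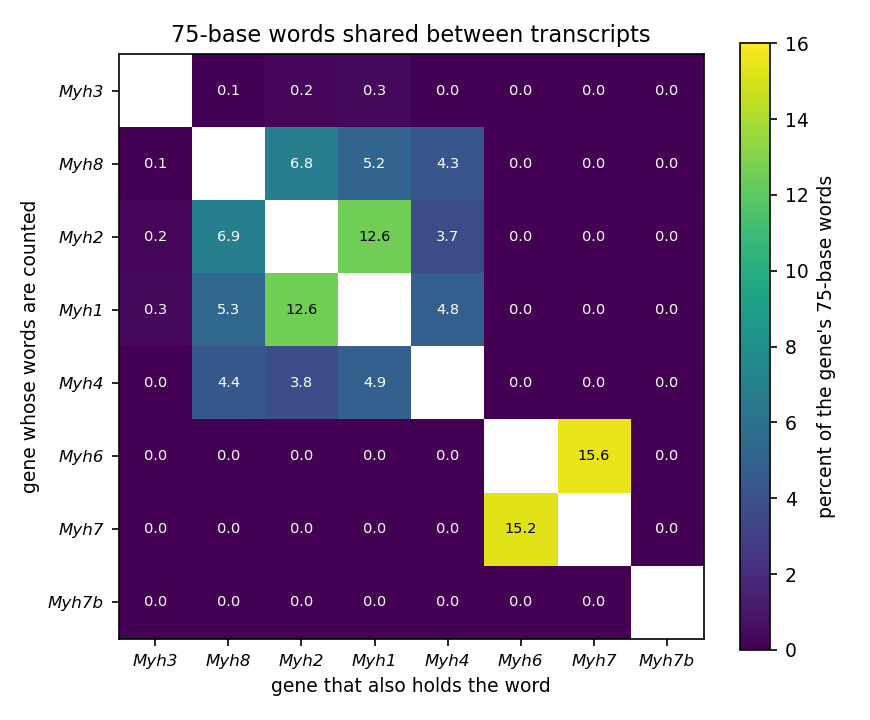
Share of each gene's 75-base words (rows, in percent) that also occur in the transcript of another member (columns), from the GRCm38 transcripts. Most sharing is among Myh1, Myh2, Myh4 and Myh8 and between Myh6 and Myh7. Myh3 shares at most 0.34% of its words with another member, and Myh7b shares none.

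The starts of the adult fast genes also share sequence. The windows below run from 250 bases before to 50 bases after a RefSeq transcript start (build GRCm38.p6), each in the direction of its gene, and are shown because Myh4 and Myh1 varied most between libraries among the 8 genes. Capitals mark the longest run common to Myh1, Myh2 and Myh4, or the part of it kept in Myh8, and the letters TATAAA on the gene's own strand.
Myh2, chr11:67170777-67171076, plus strand: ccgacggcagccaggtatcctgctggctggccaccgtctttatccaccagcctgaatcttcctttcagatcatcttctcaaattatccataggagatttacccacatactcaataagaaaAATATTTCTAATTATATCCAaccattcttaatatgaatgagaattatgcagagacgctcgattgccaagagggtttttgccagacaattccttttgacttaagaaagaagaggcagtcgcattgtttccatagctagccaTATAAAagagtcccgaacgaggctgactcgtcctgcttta
Myh1, chr11:67199852-67200151, plus strand: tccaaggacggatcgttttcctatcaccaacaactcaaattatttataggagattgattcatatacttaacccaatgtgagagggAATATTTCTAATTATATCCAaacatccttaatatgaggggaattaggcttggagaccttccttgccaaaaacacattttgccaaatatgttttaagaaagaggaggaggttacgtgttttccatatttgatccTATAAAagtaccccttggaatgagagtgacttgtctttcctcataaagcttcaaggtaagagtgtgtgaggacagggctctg
Myh4, chr11:67237562-67237861, plus strand: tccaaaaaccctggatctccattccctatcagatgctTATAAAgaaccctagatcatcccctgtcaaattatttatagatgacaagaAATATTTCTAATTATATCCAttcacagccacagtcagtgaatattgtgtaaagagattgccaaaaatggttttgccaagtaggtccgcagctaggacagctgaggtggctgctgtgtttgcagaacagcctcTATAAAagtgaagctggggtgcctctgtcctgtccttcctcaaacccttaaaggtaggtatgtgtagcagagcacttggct
Myh8, chr11:67276874-67277173, plus strand: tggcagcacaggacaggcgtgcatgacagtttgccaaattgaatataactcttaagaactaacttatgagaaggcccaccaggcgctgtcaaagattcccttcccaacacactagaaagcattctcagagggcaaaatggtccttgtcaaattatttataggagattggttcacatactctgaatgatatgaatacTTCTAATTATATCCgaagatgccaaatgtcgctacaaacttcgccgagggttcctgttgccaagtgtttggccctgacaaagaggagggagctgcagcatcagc
Myh7, chr14:54994577-54994876, minus strand: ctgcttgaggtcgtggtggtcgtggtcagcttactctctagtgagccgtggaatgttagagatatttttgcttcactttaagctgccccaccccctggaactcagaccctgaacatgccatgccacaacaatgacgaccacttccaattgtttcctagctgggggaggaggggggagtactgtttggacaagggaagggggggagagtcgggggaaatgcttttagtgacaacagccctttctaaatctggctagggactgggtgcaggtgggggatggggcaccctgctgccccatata

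The common run is AATATTTCTAATTATATCCA, 20 bases long, and of 32851 promoter windows of the same length it was found in 3, those of Myh1, Myh2 and Myh4. A 14-base part of it, TTCTAATTATATCC, was found in 4 windows, the fourth being that of Myh8. The run began 165, 130 and 163 bases before the start in Myh1, Myh2 and Myh4, and its part began 54 bases before the start in Myh8. The letters TATAAA, the core of a TATA box, lay 32 bases before the start in Myh1 and 31 before it in Myh4, while in Myh2 they began at base 11 of the annotated transcript. They were on neither strand of either Myh7 window or of the Myh7b window. Of all windows, 13.6% held TATAAA on 1 strand or the other. The E-box letters CANNTG were found 3 times in the Myh4 window and in neither the Myh1 nor the Myh2 window, against 72.3% of all windows with at least 1. The MCAT letters CATTCC, searched on both strands, were found once each in Myh1 and Myh4 and not in Myh2, against 14.7% of all windows. None of these motifs overlapped another in the windows printed, and such matches only describe the windows.

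Library totals ran from 22481391 to 27187425 expected counts, and 13652 genes had enough counts to be tested, all 8 members among them. By edgeR's quasi-likelihood test, 172 genes were higher and 374 lower in the mCDC group. No gene of the 13652 passed an adjusted p under 0.05 (0.0%) in that test, while 947 had an unadjusted p under 0.05 and 48, 66 and 58 genes passed after adjustment in DESeq2, the likelihood ratio test and the exact test. Of the 13652 genes, 38.7% had both libraries of one group above both of the other. For a single value, the exact permutation test has a smallest p of 0.333 with 2 libraries against 2. Adjusted p-values below are Benjamini-Hochberg values from the quasi-likelihood test over all genes tested, and levels are CPM after TMM scaling. The label of slow muscle was checked by slow genes, and Tnnt1, slow troponin T, had at least 9147 CPM in each library, with Myh7 above it. Because whole muscle was measured, fewer fibres of a type and less RNA per fibre cannot be told apart.

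Myh7, the slow isoform, was the most abundant member in each library. Its level was 46884 CPM in mCDC 1, 39234 in mCDC 2, 47467 in vehicle 1 and 38237 in vehicle 2. Each group thus had 1 muscle near the upper and 1 near the lower value, and the groups overlapped. The means were 43059 ± 5410 CPM for mCDC and 42852 ± 6527 for vehicle (SD, n = 2), a log2 fold change of 0.007 with a standard error of 0.30 (adjusted p = 0.999). The highest library was 1.24 times the lowest. Per kilobase of transcript, Myh7 stood at 6138 to 7619 CPM, followed in every library by Myh2 and then Myh1.

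Myh2, the isoform of type IIa fibres, had 6749 CPM in mCDC 1, 9617 in mCDC 2, 7617 in vehicle 1 and 10860 in vehicle 2. The second library of each group was the higher one, and the groups overlapped. Means were 8183 ± 2028 CPM for mCDC and 9238 ± 2293 for vehicle (SD, n = 2). The log2 fold change was -0.17 with a standard error of 0.27 (adjusted p = 0.889).

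Myh1, the isoform of type IIx fibres, had 4162 CPM in mCDC 1, 603 in mCDC 2, 4490 in vehicle 1 and 1661 in vehicle 2. mCDC 1 and vehicle 1 were high and nearly equal, mCDC 2 was the lowest, and the groups overlapped. The highest value was 7.45 times the lowest. The log2 fold change was -0.37 with a standard error of 0.76 (adjusted p = 0.923). Without mCDC 1 the log2 fold change was -2.35, which edgeR called (adjusted p = 0.0191), while without mCDC 2, with 0.44, and without vehicle 1, with 0.52, it was above 0.

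Myh4, the isoform of type IIb fibres, had 2096 CPM in mCDC 1, 47.5 in mCDC 2, 163 in vehicle 1 and 411 in vehicle 2. Both vehicle muscles thus lay between the mCDC muscles. The values rest on 55337, 1039, 4270 and 11297 expected counts, so the counting error is small beside the differences. Means were 1072 ± 1448 CPM for mCDC and 287 ± 175 for vehicle (SD, n = 2), a log2 fold change of 1.90 with a standard error of 1.22 (adjusted p = 0.763). The direction was set by which mCDC muscle was kept. Without mCDC 2 the log2 fold change was 2.87 (edgeR, adjusted p = 0.000814), and without mCDC 1 it was -2.59 (adjusted p = 0.00294), where the lone mCDC library is assumed to vary as the vehicle libraries do.

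**Figure D2:**
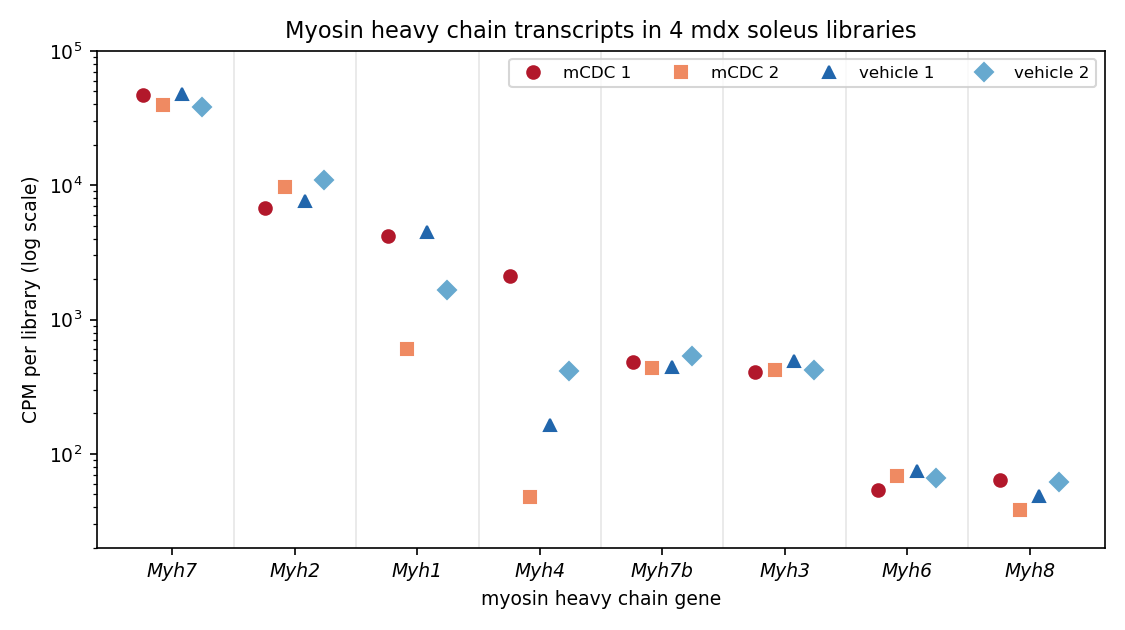
Level of each myosin heavy chain gene in the 4 soleus libraries, in CPM on a log scale, with 1 symbol per library. Myh7 lies near the top in all 4, whereas Myh4 runs from 47.5 CPM in mCDC 2 to 2096 in mCDC 1 with both vehicle muscles between them.

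The developmental isoforms were far lower. Myh3, the embryonic isoform, had 410 CPM in mCDC 1, 418 in mCDC 2, 495 in vehicle 1 and 422 in vehicle 2. It was the only member whose groups did not overlap, with both mCDC muscles below, 1 of 8 against the 38.7% of all genes. The gap between mCDC 2 and vehicle 2 was small, and the log2 fold change was -0.15 with a standard error of 0.14 (adjusted p = 0.822). Myh8, the perinatal isoform, had 64.1 CPM in mCDC 1, 38.1 in mCDC 2, 48.5 in vehicle 1 and 62.3 in vehicle 2. Here the extremes were both mCDC muscles, and the log2 fold change was -0.12 with a standard error of 0.24 (adjusted p = 0.925). Myh8 had 9.10% to 15.6% of the CPM of Myh3. Together Myh3 and Myh8 made up 0.779%, 0.904%, 0.894% and 0.927% of the 8-gene total in mCDC 1, mCDC 2, vehicle 1 and vehicle 2. The difference between the group means was -0.0692 percentage points (exact permutation test, two-sided p = 0.667), and it was -0.00659 without mCDC 1 and -0.132 without mCDC 2.

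Myh7b had 486 CPM in mCDC 1, 432 in mCDC 2, 441 in vehicle 1 and 532 in vehicle 2, so that the vehicle muscles lay at both the upper end and near the lower end. Its log2 fold change was -0.08 with a standard error of 0.15 (adjusted p = 0.910). Myh6, the cardiac isoform, had 54.3 CPM in mCDC 1, 68.3 in mCDC 2, 75.1 in vehicle 1 and 66.6 in vehicle 2. mCDC 1 was the lowest, mCDC 2 and vehicle 2 were close, and the log2 fold change was -0.21 with a standard error of 0.16 (adjusted p = 0.781). Myh6 had 0.116% to 0.174% of the Myh7 CPM. The other cardiac markers were at or near 0, with Myl7, the atrial light chain, and Nkx2-5, a cardiac transcription factor, at 0 in all 4 libraries and a sum of 1.26 to 2.24 CPM over the 10 cardiac genes listed. Only 2 of those 10 had enough counts for the test, and neither was called.

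The order of the lower members changed from library to library on the per-kilobase scale. In mCDC 1 the fourth place went to Myh4, ahead of Myh7b and Myh3. In mCDC 2 Myh4 fell behind Myh7b, Myh3 and Myh6. In both vehicle muscles it stood sixth, behind Myh7b and Myh3. Myh7b and Myh3 exchanged places between vehicle 1 and the other 3 libraries, and their values, 70.2 to 86.3 and 68.0 to 82.1 CPM per kilobase, overlapped. Myh8 was above Myh6 in mCDC 1 and below it in the other 3 libraries, at 6.19 to 10.4 against 8.89 to 12.3 CPM per kilobase.

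As shares of a total, the 8 genes made up 5.92% of all expected counts in mCDC 1, 4.91% in mCDC 2, 6.15% in vehicle 1 and 5.46% in vehicle 2. Myh7 was 77.0%, 77.8%, 78.1% and 73.2% of that 8-gene total in the same order. The 3 adult fast genes together were 21.4%, 20.3%, 20.2% and 24.7%. Vehicle 2 was the library with the lowest slow and the highest fast share, and the other 3 were close together. The mean fast share was 20.9% ± 0.712 for mCDC and 22.5% ± 3.23 for vehicle (SD, n = 2), a difference of -1.61 percentage points (exact permutation test, two-sided p = 1.0). Wilson 95% intervals of a share within 1 library reached at most 0.0776 percentage points to either side, and cover counting error only.

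Within the fast total, Myh2 and Myh1 ran opposite to each other between libraries of the same group. Myh2 was 11.1% of the 8-gene total in mCDC 1, 19.1% in mCDC 2, 12.5% in vehicle 1 and 20.8% in vehicle 2. Myh1 was 6.83%, 1.19%, 7.38% and 3.18% in the same order, high where Myh2 was low. Myh4 was 3.44%, 0.0941%, 0.268% and 0.787%. Vehicle 1 thus combined a high Myh1 share with a low Myh4 share, unlike mCDC 1, where both were high. The CPM of Myh4 was 50.4% of that of Myh1 in mCDC 1 and 24.7% in vehicle 2, but 7.88% in mCDC 2 and 3.63% in vehicle 1. For all 8 shares the exact permutation p between groups was 0.667 or 1.0, and in each the groups overlapped.

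Of the fast total alone, Myh2 was 51.9% in mCDC 1, 93.7% in mCDC 2, 62.1% in vehicle 1 and 84.0% in vehicle 2. Myh1 took 32.0%, 5.87%, 36.6% and 12.8%, and Myh4 16.1%, 0.462%, 1.33% and 3.18%. Myh2 was therefore the largest part of the fast total in every library. Each group held 1 muscle with a large part of Myh1, 32.0% or 36.6%, and 1 in which Myh2 was 84.0% or more. With the 3 genes summed to 1 row before the fit, a choice made after seeing the data because of their shared sequence, the levels were 13007, 10267, 12270 and 12932 CPM and the log2 fold change was -0.12 with a standard error of 0.22 (edgeR, adjusted p = 0.916).

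**Figure D3:**
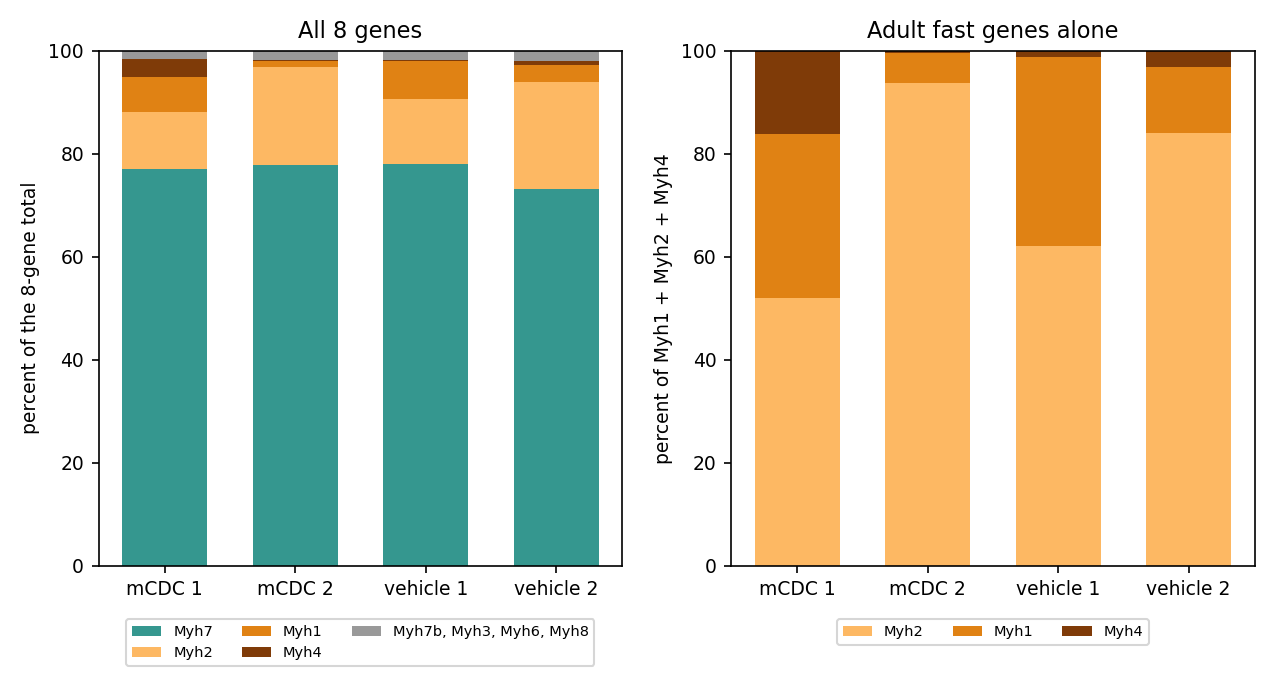
Left, each gene's percent of the expected counts of all 8 myosin heavy chains per library, and right, the percent of Myh2, Myh1 and Myh4 within their own sum. The Myh7 block is of similar height in the 4 libraries (73.2% to 78.1%), while Myh2 within the fast sum runs from 51.9% to 93.7%.

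The spread between muscles of one group was unusual for Myh1 and Myh4 when set beside the rest of the table. Between mCDC 1 and mCDC 2 the log2 difference of Myh4 was 5.46, and 1 gene of the 13652 differed more. That gene was 1700047I17Rik2, with 0 CPM in mCDC 1 and 23.3 to 42.7 in the others. The mCDC difference of Myh1 was 2.79, and 25 genes differed more. The median size of such differences was far smaller, 0.186 over all genes between the mCDC muscles and 0.232 between the vehicle muscles. Between vehicle 1 and vehicle 2 the difference was 1.43 for Myh1 and -1.33 for Myh4, sizes exceeded by 184 and 241 genes. Myh2 differed by -0.51 within each group, and Myh7 by 0.26 and 0.31, which 5105 and 5114 genes exceeded.

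**Figure D4:**
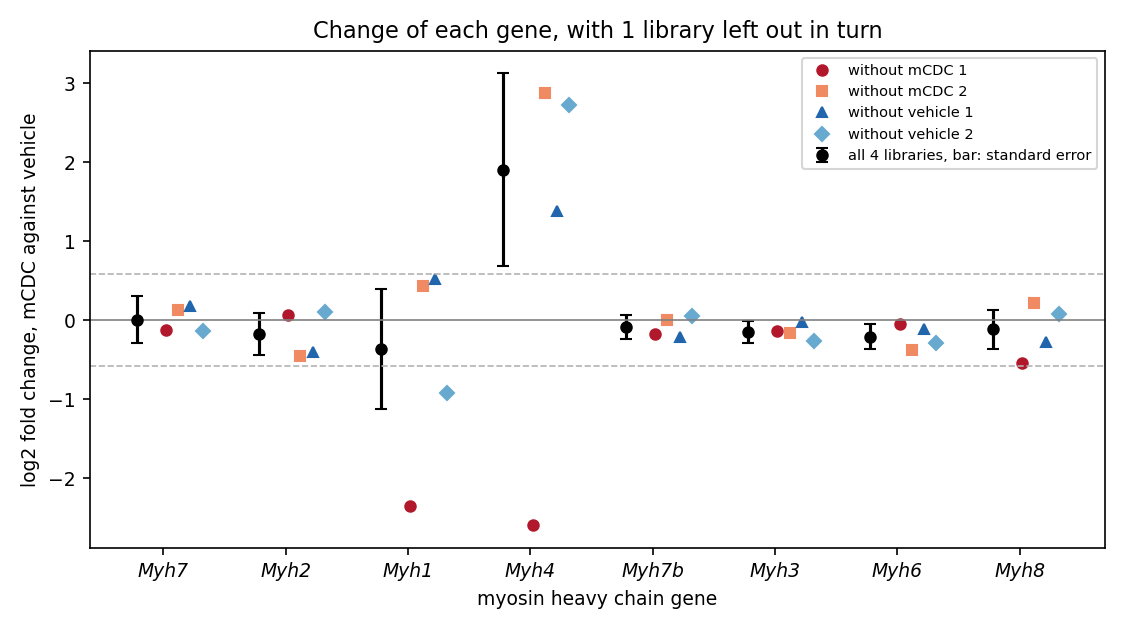
Log2 fold change of each gene, mCDC against vehicle, with all 4 libraries (black, bar: standard error) and with 1 library omitted at a time (colours). Dashed lines mark a 1.5-fold change. Myh4 runs from -2.59 without mCDC 1 to 2.87 without mCDC 2, while Myh7 stays between -0.14 and 0.17.

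Over the 8 members, 2 had a log2 fold change above 0 and the median was -0.13, where the median of all genes was -0.01. By the distance between log2 levels over the 4 libraries, each gene centred on its own mean, the genes most like Myh7 were Ppp1cb, a catalytic subunit of the phosphatase that acts on myosin light chains, with a distance of 0.017, Lsmem1 (0.0276) and Blmh, a cysteine protease (0.0292). Such closeness is common, as 1192 genes lay within 0.2 of Myh7. The genes most like Myh4 were Pvalb, the calcium buffer parvalbumin of fast fibres, at a distance of 1.49, and Mybpc2, fast myosin binding protein C, at 1.64, followed by the chemokine gene Ccl21c, which had 0 counts in 2 libraries. No gene lay within 1 of Myh4, and the median distance of all genes from it was 4.0. These distances describe 4 libraries and carry no test.

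Pvalb had 648 CPM in mCDC 1, 16.8 in mCDC 2, 161 in vehicle 1 and 109 in vehicle 2. Mybpc2 had 344, 11.8, 108 and 67.8 CPM in the same order. In both, as in Myh4, mCDC 1 was the highest and mCDC 2 the lowest, but vehicle 1 was above vehicle 2, as in Myh1. Neither was called with all libraries, and each turned with the library kept. Without mCDC 1 their log2 fold changes were -3.00 and -2.89, and without mCDC 2 they were 2.27 and 1.97.

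The lists of genes that go with a fibre type, here and below, were described by their counts. Over the 13652 genes tested, 6609 had a log2 fold change above 0, 1.26% were called higher and 2.74% lower. Of 13 fast contractile genes (light chains, fast troponins, calcium handling and Z-disc proteins), none was called, 12 had a log2 fold change above 0, the median was 0.06, and the groups overlapped in all 13. The median was -0.10 without mCDC 1, 0.31 without mCDC 2 and 0.32 without vehicle 2. Their summed level was 34234 CPM in mCDC 1, 29326 in mCDC 2, 26105 in vehicle 1 and 34894 in vehicle 2. By mean CPM the most abundant was Atp2a1, the fast calcium pump of the sarcoplasmic reticulum, with 8367, 5659, 6806 and 6672 CPM. Tnnt3, fast troponin T, had 5709, 5930, 4572 and 7039 CPM, above Atp2a1 in mCDC 2 and vehicle 2. Tnnc2, fast troponin C, had 4140, 4411, 3083 and 5189 CPM. The fast troponins were highest in vehicle 2 and lowest in vehicle 1, an order shared with Myh2 only in its upper end and not with Myh4. Actn3, the actinin of the fastest fibres, chosen for mention after its values were seen, had 932, 227.5, 471 and 341 CPM, an order like that of Pvalb.

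The slow contractile list gave another picture. Of its 13 genes, Myh7 not included, 2 were called higher and none lower, 11 had a log2 fold change above 0 with a median of 0.21, and 10 had both mCDC muscles above both vehicle muscles, against the 38.7% of all genes that did not overlap in either direction. With a trend on transcript length and GC content removed, the median was 0.11. The summed level was 57452 CPM in mCDC 1, 54648 in mCDC 2, 53156 in vehicle 1 and 47202 in vehicle 2. Tnnt1, slow troponin T, had 10231, 9485, 9376 and 9147 CPM, and Atp2a2, the slow calcium pump, had 9319, 7769, 10942 and 7328. Tpm3, slow tropomyosin, had 8839, 8282, 8702 and 7671 CPM. Tnnt1 was among the 10, Atp2a2 and Tpm3 were not, and none of the 3 passed the test.

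The called genes of the slow list were both stretch-responsive proteins rather than parts of the motor. Ankrd2, an ankyrin repeat protein that responds to stretch, had 1995 CPM in mCDC 1, 3224 in mCDC 2, 1247 in vehicle 1 and 1389 in vehicle 2. Both mCDC muscles were above both vehicle muscles, with a log2 fold change of 0.99 and a standard error of 0.24 (edgeR, adjusted p = 0.567). It was called with any 1 library left out, though at 0.60 without mCDC 2, just over the threshold. Csrp3, the muscle LIM protein of the Z-disc, had 762.5, 2045, 658 and 741 CPM. Its mCDC 1 value was close to the vehicle values, and the log2 fold change of 1.0, with a standard error of 0.38 (edgeR, adjusted p = 0.708), was 0.13 without mCDC 2. Csrp3 was called without mCDC 1 (1.55) and not without vehicle 1 (0.93) or vehicle 2 (1.09), where its size was close to that with all libraries.

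**Figure D5:**
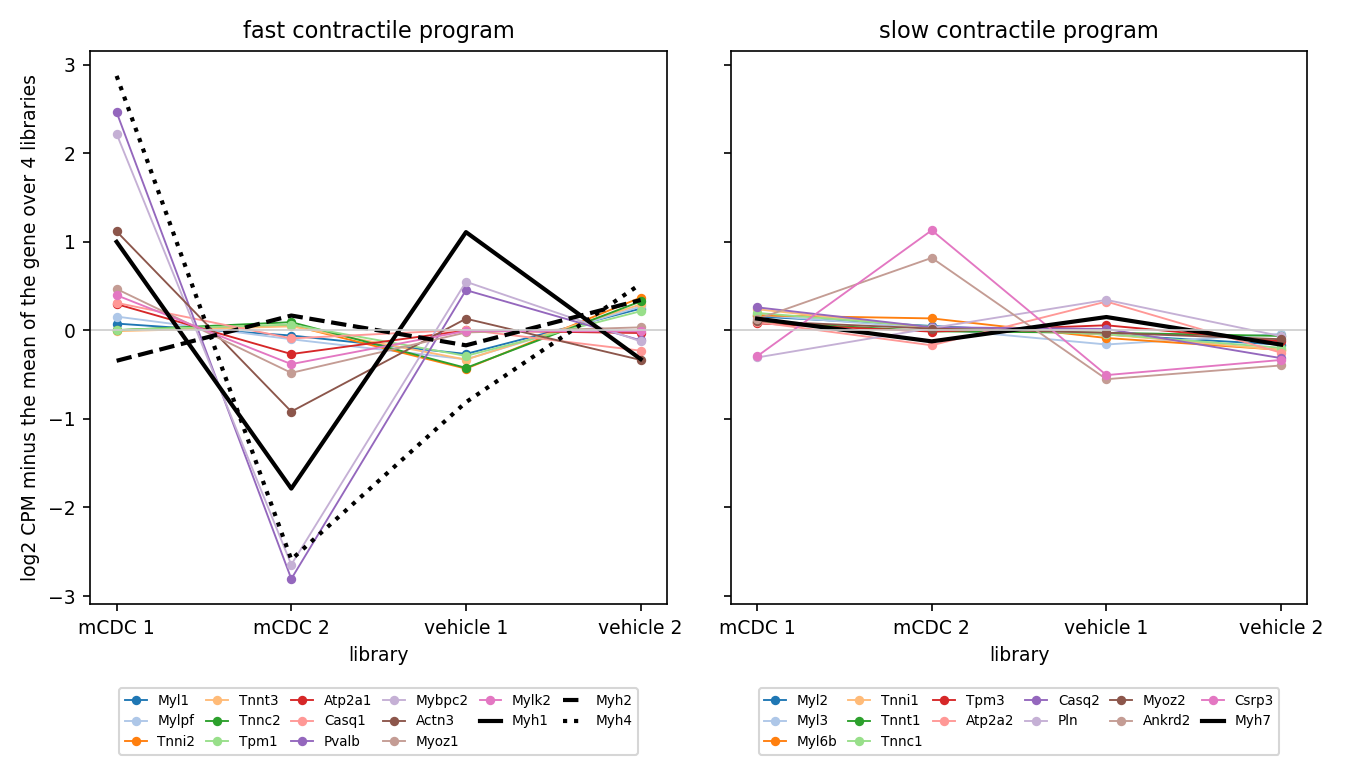
Log2 CPM of each gene of the fast (left) and slow (right) contractile lists minus its own mean over the 4 libraries, with the adult myosin heavy chains in black. Pvalb, Mybpc2 and Actn3 spread like Myh1 and Myh4, with mCDC 2 lowest, while most slow genes and Myh7 stay within a narrow band and Csrp3 and Ankrd2 peak in mCDC 2.

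Regulators of fibre type were described next. The 3 most abundant transcription factors tied to the fast program were Nfix, a factor of fetal muscle development, Vgll2 and Tbx15. Nfix had 1013 CPM in mCDC 1, 945 in mCDC 2, 1035 in vehicle 1 and 881 in vehicle 2, Vgll2 had 471, 489, 490 and 355, and Tbx15 had 271, 266.5, 347 and 310. In Tbx15 both mCDC muscles were below both vehicle muscles, and in Nfix and Vgll2 the groups overlapped. Their log2 fold changes were 0.03, 0.18 and -0.29, and none of the 3 was called.

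Of 13 regulators of the slow and oxidative program, 1 was called higher and 2 lower, and the median log2 fold change was -0.13. That median had no stable sign, since it was 0.13 without vehicle 1 and 0.05 with the length and GC trend removed. Mef2c, a muscle transcription factor, had 1120, 1216, 1358 and 1378 CPM and was not called. Tead1, which binds MCAT elements, had 283, 260, 352 and 244 CPM and was not called either. Rcan1, an inhibitor and target of calcineurin, was called higher, with 544, 935, 502 and 330 CPM and 0.83 as its log2 fold change, with a standard error of 0.28 (edgeR, adjusted p = 0.684). It was not called without mCDC 2 (0.39) or without vehicle 2 (0.56). Ppargc1a, the coactivator of mitochondrial biogenesis, was called lower, with 35.7, 29.6, 60.3 and 45.6 CPM and -0.70 as its log2 fold change, with a standard error of 0.18 (edgeR, adjusted p = 0.612). It was not called without mCDC 2 (-0.57) or without vehicle 1 (-0.48). Prox1, a homeobox factor of slow fibres, was called lower from low counts, with 4.54, 3.15, 9.81 and 4.73 CPM and -0.91 as its log2 fold change, with a standard error of 0.37 (edgeR, adjusted p = 0.713). It was -0.29 without vehicle 1 and -0.67 without mCDC 2, neither of them called.

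Thyroid hormone pushes muscle towards fast isoforms, and none of 8 genes of its axis was called, with 2 of 8 above 0 and a median log2 fold change of -0.06, which was 0.04 without mCDC 2. The receptor gene Thrb was called lower without vehicle 2. The most abundant were the receptors Rxra, with 134 to 158 CPM, and Thra, with 51.3 to 58.7, followed by Thrb, with 13.7 to 23.2. Of 10 genes for myosin folding and thick filament partners none was called by the quasi-likelihood test, and the median was -0.02, which was 0.06 without mCDC 2 and 0.07 without vehicle 1. Mybph, myosin binding protein H, named here after its values were seen, had 28.4, 60.3, 23.6 and 30.7 CPM and was called higher with DESeq2, the likelihood ratio test and the exact test, and, together with the chaperone gene Hsp90aa1, without mCDC 1. Ttn, the giant spring protein titin, had 9418, 9587, 11351 and 10827 CPM, Mybpc1, slow myosin binding protein C, 5332, 4373, 5644 and 4433 CPM, and Myom1, of the M-band, 2581, 2237, 3038 and 2714 CPM. In Ttn and Myom1 both mCDC muscles were below both vehicle muscles, and in Mybpc1 the groups overlapped.

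In the list of embryonic and regenerating fibre genes, the companions of Myh3 and Myh8, 1 of 10 was called higher and none lower, 9 were above 0 and the median log2 fold change was 0.15, which was -0.002 without mCDC 1 and 0.28 without mCDC 2. Myog, the transcription factor myogenin that drives differentiation, had 32.6 CPM in mCDC 1, 63.3 in mCDC 2, 21.3 in vehicle 1 and 24.4 in vehicle 2. Its log2 fold change was 1.07 with a standard error of 0.28 (edgeR, adjusted p = 0.612), and without mCDC 2 it was 0.51, under the 1.5-fold threshold. The 3 most abundant were Ncam1, with 91.5 to 117.5 CPM, Myl4, the embryonic light chain, with 83.1 to 101.1, and Chrna1, the acetylcholine receptor alpha subunit, with 66.7 to 87.4, and none of them was called. Among satellite cell markers, 4 of 5 were tested and Pax7, which marks muscle stem cells, was called higher at 2.99, 2.88, 1.87 and 1.6 CPM. Its log2 fold change was 0.76 with a standard error of 0.28 (edgeR, adjusted p = 0.7), and the call was lost, at 0.73, 0.79 and 0.65, without mCDC 1, mCDC 2 and vehicle 2. The more abundant Cdh15 (38.0 to 46.6 CPM) and Vcam1 (2.74 to 3.89) were not called.

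Of the 6 other class II heavy chains, none was called higher and 1 was called lower. Myh15, with 1.33, 1.78, 2.29 and 3.06 CPM, was at -0.79 on the log2 scale, with a standard error of 0.32 (edgeR, adjusted p = 0.713), and without mCDC 1 (-0.58) or vehicle 2 (-0.57) it was not called. Myh13, the last gene of the chromosome 11 cluster, had 16.1, 16.6, 23.8 and 19.4 CPM, with both mCDC muscles below and a log2 fold change of -0.40 that did not reach the 1.5-fold threshold. Myh10, a nonmuscle chain, had 241, 316.5, 234 and 179 CPM with both mCDC muscles above and a log2 fold change of 0.43, likewise under the threshold, though it was called after removal of the length and GC trend (0.61) and without mCDC 1 (0.62) or vehicle 1 (0.64). Nonmuscle Myh9 had 63.0 to 114 CPM, nonmuscle Myh14 253 to 341, and Myh11, of smooth muscle, 34.6 to 48.7, and in each the groups overlapped. The long noncoding gene 2310065F04Rik, which lies between Myh3 and Myh2, had 1.51 to 2.73 CPM. The microRNA genes in the introns of Myh6, Myh7 and Myh7b are Mir208a, Mir208b and Mir499. They had at most 1 count in a library, too few for the test. Libraries of long RNA do not measure mature microRNAs.

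Markers of other cell types in the muscle were measured beside these genes. In the fibroblast list 2 of 5 were called lower, Lum and Pdgfra, and the median log2 fold change was -0.54, with Dcn, Col3a1 and Col1a1 the most abundant and not called. The summed fibroblast level was 304.5 CPM in mCDC 1, 266 in mCDC 2, 290 in vehicle 1 and 492 in vehicle 2. The endothelial sum, led by Cdh5, Pecam1 and Kdr, was 106, 85.6, 89.9 and 187 CPM with none called by the quasi-likelihood test (Pecam1 was called lower with DESeq2, the likelihood ratio test and the exact test), and the erythroid sum, led by Hba-a1, Hba-a2 and Hbb-bt, was 270, 279, 244 and 454 CPM with Hba-a2 called lower. Vehicle 2, the library with the lowest Myh7 share, was thus the highest in each of these sums, and neither Lum (-0.47) nor Pdgfra (-0.23) was called without it. Pdgfra was not called without mCDC 2 (-0.57) either. Hba-a2, at 14.5, 14.8, 28.6 and 31.7 CPM, was called with any 1 library left out, at -0.97 without vehicle 2. Expected counts of Hba-a1 and Hba-a2 were not whole in any library. Their levels thus rest in part on how shared reads were divided, which was not tested. Without vehicle 1, where vehicle 2 alone stood for its group, Dcn, Col1a1, Col3a1, Cdh5, Pecam1, Kdr and Hba-a1 were called lower too.

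Macrophage markers had Cd68 called higher and Csf1r lower, and Mrc1 (3.94 to 4.87 CPM) not called. Cd68 had 4.13, 15.4, 2.71 and 4.15 CPM in mCDC 1, mCDC 2, vehicle 1 and vehicle 2, so the groups overlapped. Its log2 fold change was 1.49 with a standard error of 0.54 (edgeR, adjusted p = 0.7), and it was called without mCDC 1 (2.16) but not without vehicle 1 (1.23), vehicle 2 (1.84) or mCDC 2, where it was 0.27. Csf1r was not called without mCDC 2 (-0.50) or vehicle 2 (-0.30). No adipocyte marker (led by Fabp4, Adipoq and Cidec), Schwann cell marker (Pmp22 and Mbp among them) or smooth muscle marker (Smtn, Acta2 and Tagln) was called with all 4 libraries. Adipoq and Cidec were called in opposite directions without vehicle 1 (higher) and without vehicle 2 (lower). The spindle markers Etv4, Egr3 and Ntf3 summed to 10.5, 13.5, 8.51 and 12.6 CPM and none was called. They belong to the muscle fibres inside spindles, which also hold Myh6 and Myh7b. The part of these cells in the myosin values was not tested.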

How the data were processed

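Soleus RNA of 4 mdx mouse samples, 2 given mCDCs and 2 given vehicle, was purified with a miRNeasy kit. The labels name a stranded mRNA library kit and the study's methods another kit, and reads were single-end, 75 bases long. The authors deposited RSEM expected counts per gene, not normalized, which summed to 22481391 to 27187425 per library. The submitters' processing notes name Bowtie2 2.1.0, RSEM 1.2.15 and mm10. RSEM divides a read that fits several genes among them, so an expected count need not be whole, and 15.72% of values were not (tolerance 0.001).

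Expected counts were rounded, filtered with filterByExpr, scaled with TMM factors (trimmed mean of M-values) and tested with the quasi-likelihood F-test of edgeR 4.0.16 in R 4.3.3, with group as the only term. The adjusted p is from that fit over 13652 genes. CPM used no prior count, and log2 values for distances and within-group differences a prior count of 2. Shares are of unscaled expected counts. Named genes were all members and other class II chains, the 3 most abundant tested genes and every called gene of each list, and the 3 genes nearest to Myh7 and to Myh4. Some genes of the lists are not reported here. The members and the lists were chosen with earlier results of these data known. Positions and transcripts came from GENCODE annotation of GRCm38, and 22969 symbols matched by their own name, 965 by an older one and 120 not. Coding sequences were aligned with MAFFT 7.526. Alternatives were DESeq2 1.42.0, other edgeR tests, size factors and filters, a replicate block, offsets for transcript length and GC content, and fits without 1 of the libraries. The procedure was tested on simulated data for this comparison over 13652 genes. There 89.8% of 98 genes changed 2-fold, 95.1% of 102 changed 4-fold and 2.57% of unchanged genes were called. Every simulated gene had the spread typical of its level, so the shares do not describe genes as variable as Myh1 and Myh4.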

Additional observations from a re-analysis of the deposited data

How the results depend on the processing

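Over the 8 members and the 9 alternatives that kept all 4 libraries, 71 of 72 log2 fold changes kept their direction and whether they were called, and none turned. The exception was Myh1 with the replicate block, -0.79 (edgeR, unadjusted p = 0.0404, adjusted p = 0.701), so that 1 member was called under the block. Myh4, not called in either fit, went from 1.90 to 0.30 under the block (edgeR, unadjusted p = 0.892). The sample numbers were not taken to pair the libraries, because the labels do not say so and same-numbered libraries' deviations from their group means had a correlation of -0.0388 over 13652 genes; the block called 480 genes over the whole table. In the slow contractile list, 1 gene was called in place of 2 with DESeq2, and 1 with the length and GC trend removed, since Csrp3 was not called in either. The trend's removal also ended the calls of Ppargc1a, Prox1, Myh15, Pdgfra and Csf1r, DESeq2 those of Myh15, Pax7, Cd68 and Csf1r, and the block and the lack of a filter each those of Pdgfra and Csf1r, while the block added Mybph. In these fits the log2 fold changes kept their direction, at -0.53, -0.70, -0.63, -0.59 and -0.64 with the trend removed and -0.77, 0.77, 1.52 and -0.66 with DESeq2, in the order named, and Csrp3 was at 0.89 and 1.02. The fast list had none called in any alternative with all libraries.

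With 1 library left out, its lone partner is assumed to vary like the other group. The number of genes called then ran from 348 to 1107 and of members from 0 to 2, and of 32 member values 10 turned and 3 were called, 1 of them, Myh4 without mCDC 1, both turned and called. The log2 fold change ran from -2.35 to 0.52 for Myh1, -0.45 to 0.10 for Myh2, -0.26 to -0.02 for Myh3, -2.59 to 2.87 for Myh4, -0.38 to -0.05 for Myh6, -0.14 to 0.17 for Myh7, -0.21 to 0.057 for Myh7b and -0.54 to 0.21 for Myh8. Differences in share, in percentage points, ran from -4.09 to 1.55 for Myh1, -5.71 to 2.54 for Myh2, -0.137 to 0.0175 for Myh3, -0.433 to 2.91 for Myh4, -0.0364 to 0.0099 for Myh6, -0.708 to 4.19 for Myh7, -0.191 to 0.102 for Myh7b, -0.029 to 0.0106 for Myh8, -3.90 to 0.67 for the fast sum and -0.132 to -0.00659 for Myh3 with Myh8. The slow list had 1 to 2 genes called and the fast list 0 to 3. The cause was not tested. With 2 libraries per group, no exact permutation test of a share could pass 0.05.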
